A study of Homo sapiens with 24 samples.

Results

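Interferon-stimulated genes are the genes that a cell switches on when an interferon reaches its surface, and most of their products act against viruses. The 42 genes described here were taken by symbol or alias from a list chosen with earlier results of these data known. All 42 were found among the 60668 rows of the gene count table, and all 42 were among the 22158 genes kept by the filter on low counts. The cells were MCF-10A, an immortalised, non-tumorigenic human mammary epithelial line. Parental cells were compared with MCF-10A MYC-ER cells, which carry the transcription factor MYC joined to an oestrogen receptor domain that binds hormone. That fusion is held inactive until 4-hydroxytamoxifen (4-OHT) binds it. Both lines grew as 3D cultures on growth-factor-reduced Matrigel, and both received 1 µM 4-OHT for 0, 8, 24 or 48 h before collection, all on day 5, so the parental cultures show 4-OHT without the fusion. There were 3 libraries in each of the 8 groups, 24 in all. The promoter that drives the fusion, whether the MYC-ER line is 1 clone, and whether the 0 h cultures received vehicle are not given in the labels. The labels speak of wells seeded in triplicate, so p-values measure the spread between these cultures, which may be technical.

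Type I interferons (alpha and beta) signal through the receptor pair IFNAR1 and IFNAR2 and the kinases JAK1 and TYK2, which phosphorylate STAT proteins, STAT2 among them. STAT2 and IRF9 are part of the complex ISGF3, which binds a promoter element known as the interferon-stimulated response element (ISRE). Type III interferons (lambda), which act mainly on epithelia, use another receptor pair, IFNLR1 and IL10RB, and feed the same complex. Many of the genes also have a low level without added interferon, held up by STAT2, IRF9, IRF1 and unphosphorylated forms of the factors.

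What these genes share outside their expression is visible in their promoters, so those of members that the results turn on are shown first. RefSeq promoter windows (build GRCh38.p14, 250 bases before the start site to 50 after it) were at hand for 34 of the 42 genes. DHX58, IFIT2, IRF7, MX2, OAS2, OASL, TRIM22 and USP18 were not in that table. The core of the ISRE, taken as GAAA, any 2 bases and GAAA again, was searched on both strands. It was present in 24 of the 34 genes (70.588%), against 1195 of the 27305 genes with a window in that table (4.376%). The 250 bases before the start of IFI6 and IFI44L are printed 5′ to 3′ on the gene's strand, with every match in capitals. Overlapping matches run together, and a match on the other strand reads TTTC, any 2 bases and TTTC.

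IFI6, chr1:27672193-27672442, minus strand: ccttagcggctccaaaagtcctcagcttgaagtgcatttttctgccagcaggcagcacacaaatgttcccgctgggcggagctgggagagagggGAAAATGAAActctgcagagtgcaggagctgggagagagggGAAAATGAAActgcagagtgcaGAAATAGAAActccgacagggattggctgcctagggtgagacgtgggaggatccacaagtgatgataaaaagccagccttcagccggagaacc

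IFI44L, chr1:78620198-78620447, plus strand: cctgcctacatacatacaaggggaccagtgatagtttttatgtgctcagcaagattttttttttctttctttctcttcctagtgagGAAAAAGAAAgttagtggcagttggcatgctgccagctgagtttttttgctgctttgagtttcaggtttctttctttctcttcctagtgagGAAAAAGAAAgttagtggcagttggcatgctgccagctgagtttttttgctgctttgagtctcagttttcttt

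IFI6 held 3 matches and IFI44L held 2. Shorter windows around the match nearest the start are shown for IFI44 and IFI27, which also fell at 8 h, and for OAS3 and ISG20, which rose.

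IFI44, chr1:78649751-78649788, plus strand: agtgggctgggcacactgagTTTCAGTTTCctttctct

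IFI27, chr14:94110621-94110670, plus strand: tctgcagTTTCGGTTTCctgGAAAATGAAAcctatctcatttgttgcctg

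OAS3, chr12:112938442-112938473, plus strand: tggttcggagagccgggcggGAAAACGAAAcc

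ISG20, chr15:88638927-88638976, plus strand: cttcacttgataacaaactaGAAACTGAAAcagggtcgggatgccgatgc

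These matches sat 18, 95, 12 and 69 bases before the first listed start site of IFI44, IFI27, OAS3 and ISG20. A match describes letters in the window and does not show that a factor was bound there. The E-box CACGTG, the site that MYC and MAX bind, was found in 3 of the 34 (HERC5, IRF9 and ISG20) (8.824%) against 8.775% of the 27305 genes. No match was found for the ISRE core in CMPK2, CXCL11, HERC6, IFI35, IRF9, OAS1, SAMD9L, STAT2, UBE2L6 and XAF1, which says only that these letters are not in these windows.

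Library totals ran from 136860029 to 182438505 counts. All 12 mammary epithelial markers checked, among them KRT5, KRT14, CDH1 and TP63, reached 1 CPM in some group. CPM are counts scaled to a common library total (TMM). The level of these markers was not constant. Before 4-OHT their sum was 17729 to 18271.8 CPM in MYC-ER libraries and 33855.6 to 40954.7 in parental ones. The MYC-ER sum was higher in the 8 h group (25809.5 to 28501.3) and lower in the 48 h group (13188.9 to 13910.6). Single markers did not all follow that sum. From 0 to 8 h KRT6A went from 2725 to 2779 CPM up to 8230 to 8971. KRT5 went from 12352 to 12799 CPM down to 9428 to 10532, and TP63 from 138 to 143 down to 76.8 to 85.8. EPCAM had 1.73 to 2.16 CPM at 0 h and 72.3 to 77.8 at 24 h. KRT14 alone had 603 to 650 CPM in MYC-ER and 7571 to 10877 in parental libraries before 4-OHT. Of 12 immune markers, 9 stayed under 1 CPM in every group and 7, including PTPRC, CD3E, CLEC4C and LILRA4, had no counts in any library. The other 3 are macrophage and monocyte markers. CD68 ran from 4.20 to 23.6 CPM over the 24 libraries and CD14 from 2.87 to 9.03. ITGAM averaged 1.52 CPM in the MYC-ER 0 h libraries and 1.41 in those of 24 h. Its mean was lower in the 8 h group (0.222) and higher in the 48 h group (6.01), and parental libraries had 0.506 to 1.24. Their part in the results was not tested. The sum of 7 fibroblast markers was 369.644 to 376.894 CPM in MYC-ER at 0 h. It was 101.661 to 109.435 in the 8 h libraries of that line, and parental cells had 117.369 to 132.791 before 4-OHT. COL1A1 and DCN made up nearly all of that sum, while COL1A2 and COL3A1 were at or near 0. The part that any shift in cell state had in the results on the interferon-stimulated genes was not tested. Fewer cells that express a gene and less RNA per cell cannot be told apart in bulk samples.

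In MYC-ER cells most of the genes were lower after 8 h of 4-OHT and higher again by 24 or 48 h. At 8 h, 24 of the 42 were lower than at 0 h and 8 were higher, so 32 passed the threshold of an adjusted p of 0.05 (edgeR's quasi-likelihood F test over all 22158 genes). Among all genes tested 67.6% passed, 35.4% lower and 32.2% higher, so the total of 32 (76.2%) was near the background while the 57.1% lower was above it. The members' median change was -0.41 on the log2 scale, against -0.10 for all genes tested. At 24 h, 19 were higher and 13 lower than at 0 h (background 61.6%, with 30.4% higher and 31.2% lower), with a median of 0.10 against -0.02. At 48 h, 16 were higher and 5 lower (background 44.1%, with 23.4% higher and 20.7% lower), with a median of 0.18 against 0.03. From 8 to 24 h, 28 rose and 5 fell (background 55.5%, with 28.4% higher and 27.1% lower), with a median of 0.56 against 0.05. From 24 to 48 h, 14 rose and 15 fell (background 53.7%, with 28.2% higher and 25.5% lower).

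The order of the 4 time points shows the same course as a description. Of the 37 members that reached 1 CPM in some group, 23 (62.2%) had their lowest MYC-ER mean at 8 h, against 30.7% of the 14854 tested genes that reached that level. The highest mean was at 24 h for 13 members (35.1%, against 18.8% of those genes) and at 48 h for 12 (32.4%, against 17.7%). In parental cells 10 of the 37 (27%) had their lowest mean at 8 h, against 16.9% of those genes. The 5 members that stayed under 1 CPM in every group were MX2, CMPK2, CXCL11, XAF1 and EPSTI1.

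**Figure D1:**
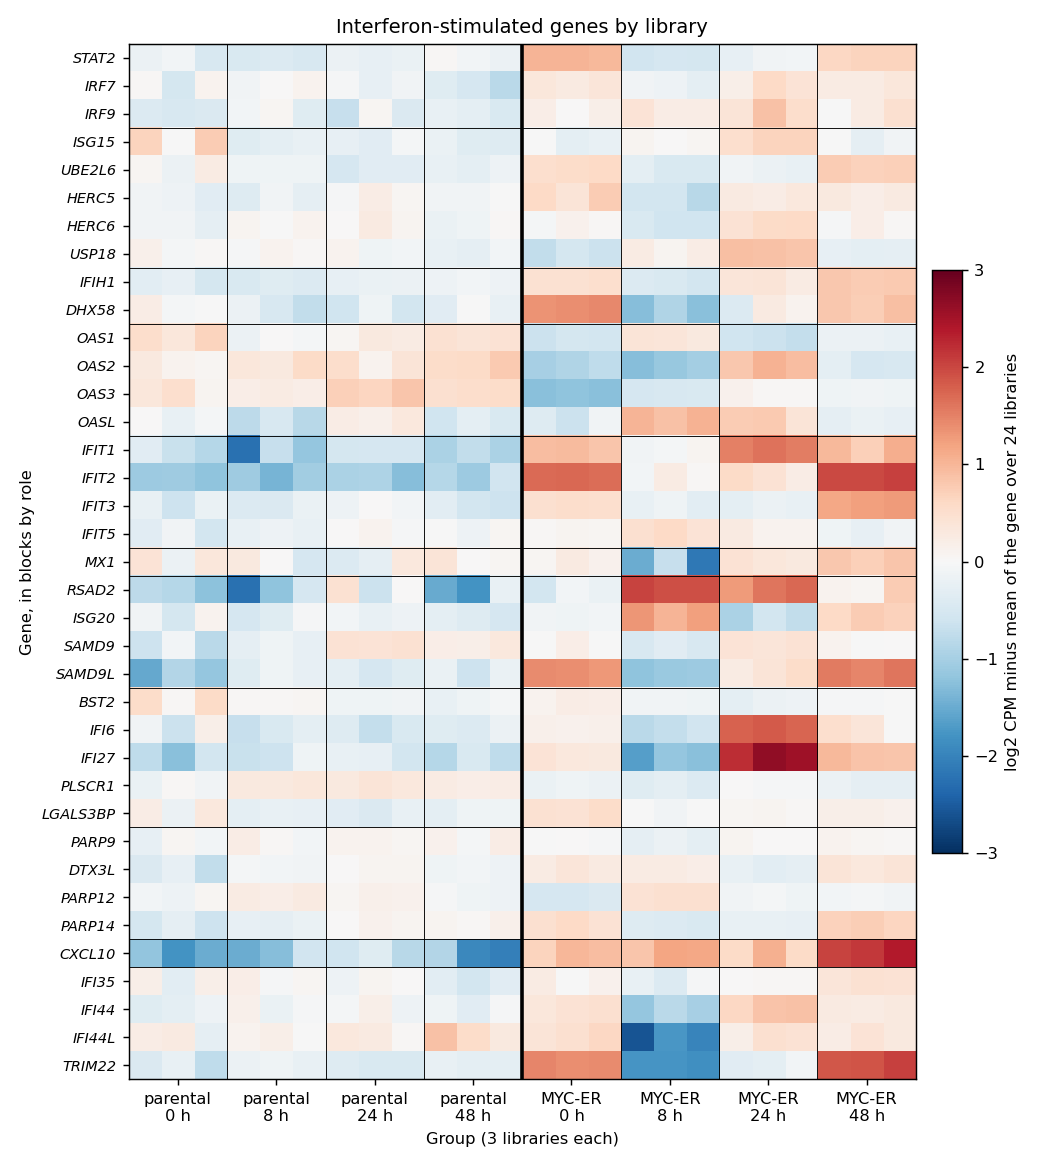
Expression of the 37 members that reached 1 CPM in some group, in each of the 24 libraries (columns, by line and hours of 4-OHT), with genes in rows grouped by role and colour giving each gene's log2 CPM relative to its own mean over all libraries. The 3 MYC-ER libraries at 8 h form a block of low values that runs through most roles, with OAS1, OASL, RSAD2, ISG20, PARP12 and IFIT5 as rows whose highest MYC-ER mean is there.

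**Figure D2:**
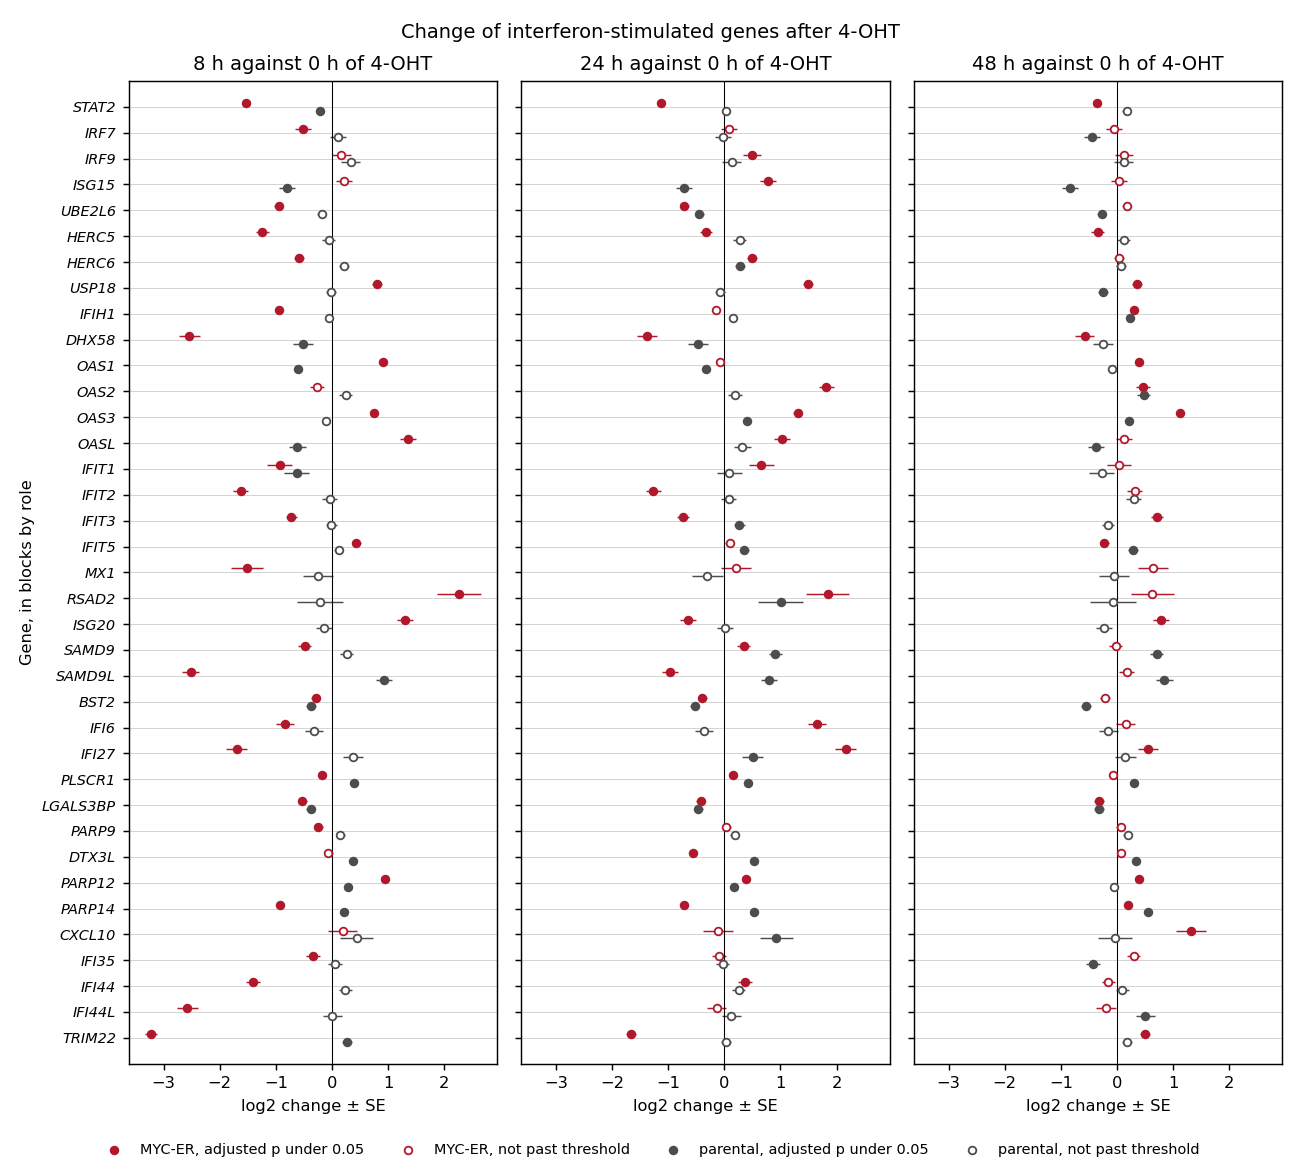
Log2 change from 0 h with its standard error for the same 37 genes in MYC-ER and parental cells at 8, 24 and 48 h, with filled points where the adjusted p was under 0.05. The MYC-ER points spread from -3.22 for TRIM22 to 2.27 for RSAD2 at 8 h, while the parental points lie between -0.83 (ISG15 at 48 h) and 1.00 (RSAD2 at 24 h).

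Among the members of the signalling complex itself, STAT2 and IRF7 fell at 8 h and IRF9 did not. STAT2 measured 95.7, 96.1 and 93.1 CPM at 0 h, 31.8, 33.7 and 32.8 at 8 h, 40.2, 44.5 and 44.9 at 24 h, and 73.1, 75.3 and 75 at 48 h in MYC-ER cells. The 3 values at 0 h were above those of every later group, and the 48 h values lay between. STAT2 fell by 1.53 ± 0.074 (log2, adjusted p = 4.63e-14) at 8 h, where ± gives the standard error, and by 1.14 ± 0.073 (log2, adjusted p = 8.22e-12) at 24 h. In parental cells it measured 42, 44.6 and 34 CPM at 0 h, 34.7, 35.9 and 33.8 at 8 h, 41.7, 40.1 and 41.6 at 24 h, and 48.9, 45 and 41.8 at 48 h, and each later group overlapped 0 h. IRF9, the DNA-binding subunit of ISGF3, ran from 4.52 to 8.47 CPM in MYC-ER cells and changed by 0.17 ± 0.17 (adjusted p = 0.379) at 8 h. Its rise of 0.49 ± 0.17 (log2, adjusted p = 0.0136) at 24 h did not pass without 0 h replicate 2 (0.43) or 24 h replicate 2 (0.33), and 48.44% of its exon bases overlap another gene on the same strand (GENCODE 29), so its counts are uncertain. IRF7, the factor that drives induction of interferon alpha genes, fell by 0.51 ± 0.14 (log2, adjusted p = 0.00359) at 8 h and changed by 0.08 ± 0.14 (adjusted p = 0.674) at 24 h.

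ISG15 is a ubiquitin-like protein that UBE2L6 and HERC5 attach to other proteins and that USP18 removes. UBE2L6 measured 31.6, 32.6 and 34 CPM at 0 h, 18.3, 16.3 and 16.3 at 8 h, 20.8, 19.8 and 19.3 at 24 h, and 37.7, 36.4 and 36.7 at 48 h in MYC-ER cells. Parental UBE2L6 measured 23.4, 19.8 and 26.6 CPM at 0 h, 20.6, 20.4 and 20.5 at 8 h, 15.8, 17.8 and 17.7 at 24 h, and 19.3, 18.4 and 20.2 at 48 h. In MYC-ER cells it fell by 0.95 ± 0.079 (log2, adjusted p = 4.74e-10) at 8 h and by 0.71 ± 0.078 (log2, adjusted p = 5.43e-08) at 24 h, with no overlap between those groups and 0 h. At 48 h its libraries were above those at 0 h, with a change of 0.17 ± 0.077 (adjusted p = 0.0734). HERC5, the ligase, measured 4.41, 3.8 and 4.95 CPM at 0 h, 1.97, 1.97 and 1.62 at 8 h, 3.5, 3.38 and 3.6 at 24 h, and 3.55, 3.32 and 3.5 at 48 h and fell by 1.24 ± 0.12 (log2, adjusted p = 3.72e-09) at 8 h. Its parental values were 2.71, 2.63 and 2.29 CPM at 0 h, 2.21, 2.71 and 2.42 at 8 h, 2.83, 3.39 and 3.01 at 24 h, and 2.69, 2.69 and 2.89 at 48 h, with 8 and 48 h overlapping 0 h.

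HERC6, a relative of HERC5, fell at 8 h and then passed its starting level. Its MYC-ER values were 7.76, 8.81 and 8.27 CPM at 0 h, 5.9, 5.3 and 5.36 at 8 h, 10.8, 12.1 and 12.1 at 24 h, and 7.88, 9.23 and 8.25 at 48 h, a drop of 0.59 (log2) at 8 h, a rise of 1.08 ± 0.089 (log2, adjusted p = 8.5e-10) from 8 to 24 h and a level above 0 h by 0.50 at 24 h. In parental cells HERC6 measured 7.49, 7.56 and 6.67 CPM at 0 h, 8.52, 8 and 8.62 at 8 h, 8.13, 9.72 and 8.48 at 24 h, and 7.08, 7.39 and 8.28 at 48 h. USP18, which also restrains receptor signalling, moved the other way at 8 h. It measured 2.63, 3.06 and 2.82 CPM at 0 h, 5.2, 4.66 and 5.09 at 8 h, 8.24, 8.04 and 7.77 at 24 h, and 3.71, 3.57 and 3.67 at 48 h in MYC-ER cells, and every later library was above every 0 h library. USP18 rose by 0.81 ± 0.088 (log2, adjusted p = 4.02e-08) at 8 h, by 1.50 ± 0.089 (log2, adjusted p = 2.3e-12) at 24 h and by 0.36 ± 0.088 (log2, adjusted p = 0.00192) at 48 h. Parental USP18 measured 4.86, 4.24 and 4.53 CPM at 0 h, 4.29, 4.69 and 4.5 at 8 h, 4.73, 4 and 4.18 at 24 h, and 3.73, 3.61 and 4.13 at 48 h, without such a rise. ISG15 itself rose by 0.78 ± 0.14 (log2, adjusted p = 6.11e-05) at 24 h, from 4.04, 3.36 and 3.5 to 5.84, 6.45 and 6.48 CPM, and changed by 0.22 ± 0.14 (adjusted p = 0.185) at 8 h.

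Both members grouped as RNA sensors, IFIH1 and DHX58, fell at 8 h. IFIH1 (MDA5), which detects long double-stranded RNA, measured 20.7, 20.8 and 21.2 CPM at 0 h, 11.4, 11.1 and 10.2 at 8 h, 19.4, 19.6 and 17.8 at 24 h, and 26.2, 25.5 and 25.9 at 48 h in MYC-ER cells. Parental IFIH1 measured 12, 12.8 and 10.4 CPM at 0 h, 11, 11.7 and 11.3 at 8 h, 12.6, 13.1 and 13.4 at 24 h, and 13.6, 14.3 and 13.6 at 48 h. In MYC-ER cells it fell by 0.94 ± 0.065 (log2, adjusted p = 2.47e-11) at 8 h and was above its 0 h level at 48 h, by 0.31 ± 0.064 (log2, adjusted p = 0.00049). DHX58 (LGP2), which tunes that sensor, had one of the larger falls on the list. DHX58 measured 4.65, 4.84 and 4.97 CPM at 0 h, 0.745, 0.972 and 0.76 at 8 h, 1.37, 2.2 and 1.97 at 24 h, and 3.22, 3.05 and 3.43 at 48 h, a fall of 2.54 ± 0.18 (log2, adjusted p = 5.02e-11) at 8 h that left it 5.83-fold lower. At 24 h it was still lower by 1.38 ± 0.17 (log2, adjusted p = 4.65e-07) and at 48 h by 0.58 ± 0.17 (log2, adjusted p = 0.00905), the last not passing when libraries were scaled by size alone (-0.41). Its parental values were 2.14, 1.77 and 1.81 CPM at 0 h, 1.61, 1.3 and 1.1 at 8 h, 1.2, 1.68 and 1.25 at 24 h, and 1.44, 1.8 and 1.56 at 48 h.

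The OAS enzymes make short oligoadenylates on sensing double-stranded RNA, and this family did not follow the fall at 8 h. OAS3 measured 56.3, 58 and 56.2 CPM at 0 h, 93.9, 96.3 and 97.6 at 8 h, 148, 137 and 136 at 24 h, and 124, 124 and 123 at 48 h in MYC-ER cells, and no library after 4-OHT overlapped the 0 h libraries. It rose by 0.76 ± 0.071 (log2, adjusted p = 4.22e-09), 1.30 ± 0.072 (log2, adjusted p = 6.43e-13) and 1.12 ± 0.072 (log2, adjusted p = 2.65e-11) at 8, 24 and 48 h. Parental OAS3 measured 171, 189.9 and 141 CPM at 0 h, 154, 159 and 153 at 8 h, 221, 209 and 237 at 24 h, and 188, 194 and 198 at 48 h, so all parental libraries but 1 were above the highest MYC-ER value. OAS1 rose by 0.92 ± 0.072 (log2, adjusted p = 1.74e-10) at 8 h, from 19.1, 20.8 and 20.6 to 39.1, 38.6 and 36.8 CPM, and was back at 19.7, 19.3 and 18.4 at 24 h.

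OAS2, a neighbour of both on chromosome 12, changed mainly at 24 h. It measured 1.36, 1.44 and 1.6 CPM at 0 h, 1.11, 1.22 and 1.34 at 8 h, 4.77, 5.58 and 5.19 at 24 h, and 2.22, 1.9 and 1.95 at 48 h in MYC-ER cells, a change of -0.26 ± 0.13 (adjusted p = 0.0742) at 8 h and a rise of 1.82 ± 0.13 (log2, adjusted p = 3.72e-11) at 24 h. In parental cells OAS2 measured 3.34, 2.94 and 2.84 CPM at 0 h, 3.42, 3.32 and 4.05 at 8 h, 3.92, 2.93 and 3.54 at 24 h, and 3.97, 4.04 and 4.66 at 48 h. OASL, which lacks the enzyme activity and assists RNA sensing, was highest at 8 h. Its MYC-ER values were 1.33, 1.12 and 1.64 CPM at 0 h, 3.59, 3.23 and 3.66 at 8 h, 2.99, 3.04 and 2.31 at 24 h, and 1.45, 1.53 and 1.48 at 48 h, with rises of 1.36 ± 0.15 (log2, adjusted p = 3.37e-08) at 8 h and 1.03 ± 0.15 (log2, adjusted p = 2.28e-06) at 24 h. The parental values of OASL were 1.78, 1.49 and 1.7 CPM at 0 h, 1.02, 1.25 and 0.982 at 8 h, 2.05, 1.96 and 2.2 at 24 h, and 1.15, 1.43 and 1.27 at 48 h, with the lowest mean at 8 h.

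IFIT proteins bind foreign RNA and block its translation, and 3 of the 4 genes fell at 8 h. IFIT2 measured 8.19, 8.26 and 7.99 CPM at 0 h, 2.39, 2.97 and 2.58 at 8 h, 3.77, 3.4 and 2.95 at 24 h, and 9.92, 10.01 and 10.5 at 48 h in MYC-ER cells, low at 8 and 24 h with no overlap with 0 or 48 h. It fell by 1.62 ± 0.13 (log2, adjusted p = 4.68e-10) at 8 h and by 1.27 ± 0.13 (log2, adjusted p = 2.47e-08) at 24 h. Parental IFIT2 measured 1.17, 1.19 and 1.09 CPM at 0 h, 1.19, 0.95 and 1.22 at 8 h, 1.3, 1.31 and 1.02 at 24 h, and 1.38, 1.17 and 1.7 at 48 h, below every MYC-ER library. IFIT3 measured 9.16, 9.6 and 9.37 CPM at 0 h, 5.66, 6.07 and 5.32 at 8 h, 5.39, 5.85 and 5.66 at 24 h, and 14.7, 15.5 and 16 at 48 h, fell by 0.72 ± 0.10 (log2, adjusted p = 1.86e-06) and 0.74 ± 0.10 (log2, adjusted p = 1.68e-06) at 8 and 24 h, and rose by 0.72 ± 0.10 (log2, adjusted p = 4.56e-06) at 48 h. Its parental values were 5.63, 4.3 and 5.79 CPM at 0 h, 4.97, 4.93 and 5.73 at 8 h, 5.96, 6.68 and 6.27 at 24 h, and 5.28, 4.5 and 4.27 at 48 h.

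IFIT1 returned earlier than IFIT2. It measured 4.75, 4.81 and 4.39 CPM at 0 h, 2.31, 2.38 and 2.64 at 8 h, 7.09, 7.71 and 7.26 at 24 h, and 4.88, 4.08 and 5.29 at 48 h in MYC-ER cells, a fall of 0.93 ± 0.22 (log2, adjusted p = 0.000825) at 8 h and a rise over 0 h of 0.66 ± 0.22 (log2, adjusted p = 0.0116) at 24 h. Parental IFIT1 measured 1.95, 1.57 and 1.37 CPM at 0 h, 0.514, 1.53 and 1.11 at 8 h, 1.71, 1.74 and 1.74 at 24 h, and 1.27, 1.49 and 1.29 at 48 h, with the lowest library at 8 h. IFIT5, the exception in the family, measured 25.9, 26.6 and 26.3 CPM at 0 h, 35, 37.8 and 33.6 at 8 h, 30.3, 26.9 and 26.9 at 24 h, and 22.8, 21.2 and 23.3 at 48 h and rose by 0.43 ± 0.082 (log2, adjusted p = 7.52e-05) at 8 h. In parental cells it measured 19.7, 23.2 and 17.3 CPM at 0 h, 21.4, 22.5 and 21.6 at 8 h, 25.3, 26.8 and 24.7 at 24 h, and 24.9, 22.5 and 26 at 48 h.

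**Figure D3:**
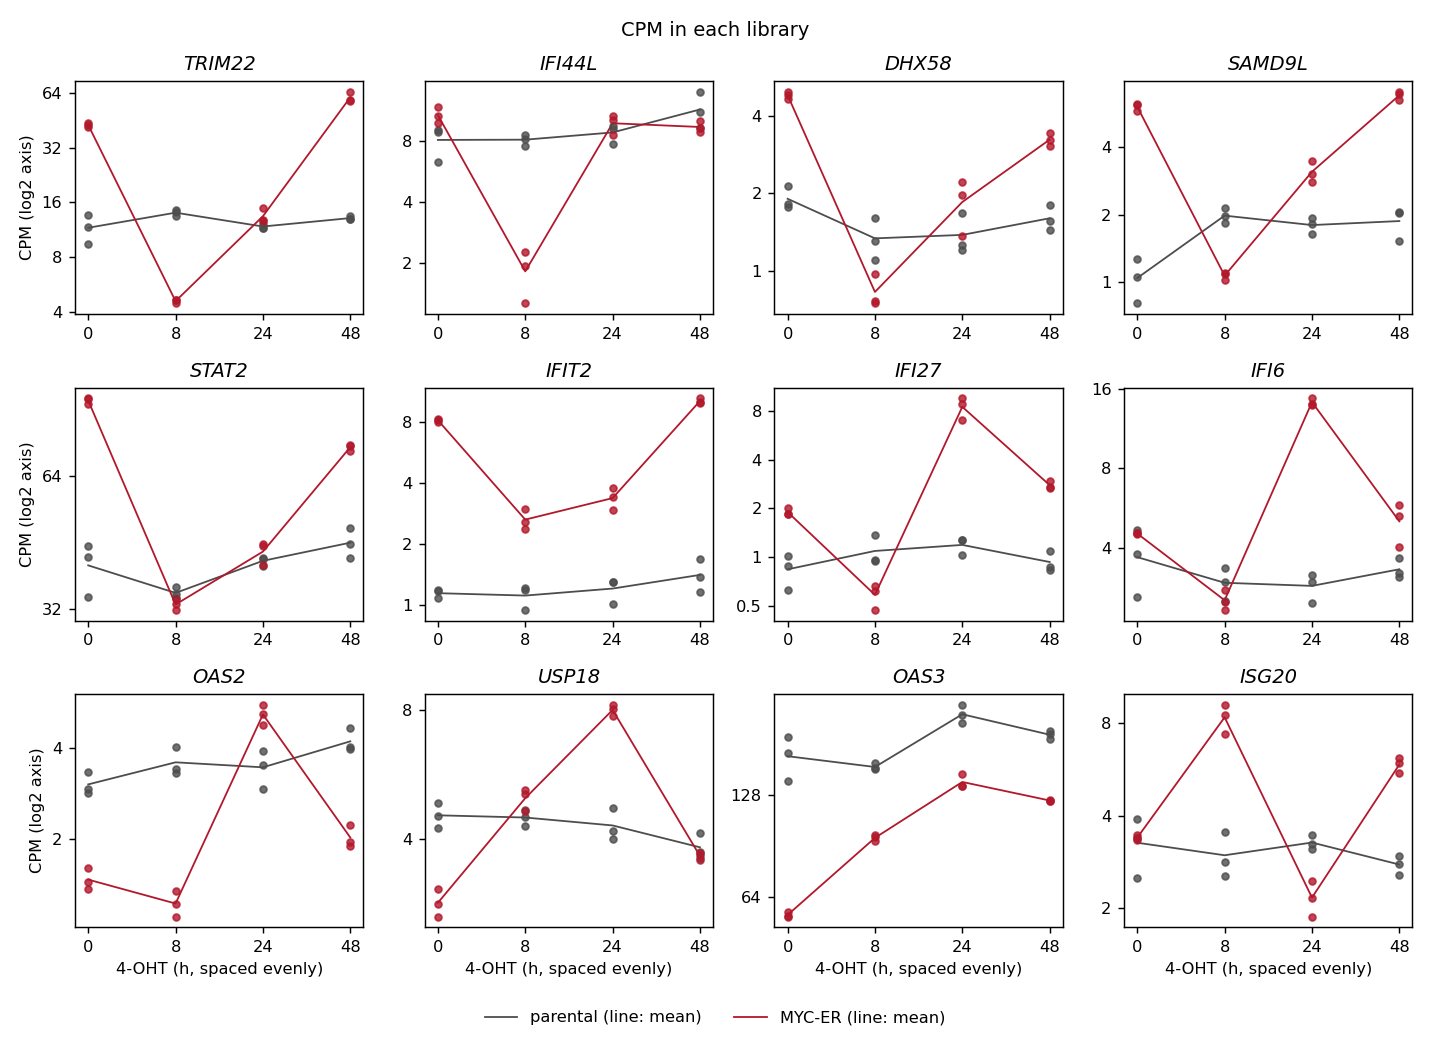
CPM (log2 axis) against hours of 4-OHT for 12 members, times spaced evenly, with a point for each library and lines through the group means of MYC-ER and parental cells. TRIM22, IFI44L, DHX58, SAMD9L, STAT2 and IFIT2 are lowest at 8 h in MYC-ER cells, while IFI27, IFI6, OAS2 and USP18 peak at 24 h and ISG20 is high at 8 h and low at 24 h.

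The effectors that act on nucleotides and RNA split in direction. RSAD2 (viperin), which makes a chain-terminating nucleotide, measured 0.255, 0.357 and 0.333 CPM at 0 h, 1.58, 1.48 and 1.49 at 8 h, 0.937, 1.18 and 1.28 at 24 h, and 0.409, 0.396 and 0.656 at 48 h in MYC-ER cells. It rose by 2.27 ± 0.39 (log2, adjusted p = 2.36e-05) at 8 h and by 1.84 ± 0.38 (log2, adjusted p = 0.000258) at 24 h, and the 8 h libraries stood above all others. In parental cells RSAD2 measured 0.215, 0.206 and 0.155 CPM at 0 h, 0.0716, 0.158 and 0.266 at 8 h, 0.524, 0.241 and 0.387 at 24 h, and 0.126, 0.102 and 0.325 at 48 h, all below the 8 h libraries of MYC-ER cells. ISG20, an exonuclease that degrades RNA, alternated. It measured 3.39, 3.33 and 3.46 CPM at 0 h, 9.18, 7.36 and 8.52 at 8 h, 1.88, 2.46 and 2.16 at 24 h, and 5.52, 6.16 and 5.92 at 48 h, with a rise of 1.30 ± 0.14 (log2, adjusted p = 5.03e-08) at 8 h, a level below 0 h by 0.65 ± 0.14 (log2, adjusted p = 0.000498) at 24 h and a rise over 0 h of 0.79 ± 0.14 (log2, adjusted p = 9.82e-05) at 48 h. The 4 MYC-ER groups did not overlap one another, whereas each later parental group overlapped 0 h, at 3.38, 2.51 and 3.91 CPM at 0 h, 2.55, 2.82 and 3.55 at 8 h, 3.45, 3.11 and 3.25 at 24 h, and 2.97, 2.79 and 2.57 at 48 h.

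SAMD9L and SAMD9 lie side by side on chromosome 7 and encode related proteins that restrict poxviruses and cell growth. SAMD9L measured 6.28, 6.18 and 5.82 CPM at 0 h, 1.01, 1.09 and 1.09 at 8 h, 2.81, 3.06 and 3.47 at 24 h, and 6.94, 6.51 and 7.12 at 48 h in MYC-ER cells and fell by 2.52 ± 0.15 (log2, adjusted p = 1.34e-12) at 8 h, to a level 5.72-fold lower. By 48 h its values were all above those at 0 h, with a change of 0.17 ± 0.14 (adjusted p = 0.339). Parental SAMD9L measured 0.798, 1.26 and 1.05 CPM at 0 h, 1.83, 2.13 and 1.97 at 8 h, 1.93, 1.64 and 1.81 at 24 h, and 2.04, 1.52 and 2.05 at 48 h, lowest at 0 h. SAMD9 measured 34.2, 39.97 and 34.1 CPM at 0 h, 25, 27.6 and 24.9 at 8 h, 46.2, 44.7 and 46.5 at 24 h, and 37, 34.6 and 35 at 48 h and fell by 0.48 ± 0.11 (log2, adjusted p = 0.000797) at 8 h. In parental cells SAMD9 measured 22.4, 32.5 and 19.7 CPM at 0 h, 28.9, 31.6 and 29.3 at 8 h, 46.6, 45.9 and 47.9 at 24 h, and 39.6, 39 and 43.2 at 48 h, and its 24 and 48 h libraries were above those at 0 h.

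Among the membrane and secreted products, all 5 genes were lower at 8 h and 2 peaked sharply at 24 h. IFI27, a small membrane protein, measured 2.01, 1.85 and 1.83 CPM at 0 h, 0.47, 0.66 and 0.62 at 8 h, 7.05, 9.6 and 8.81 at 24 h, and 2.94, 2.73 and 2.68 at 48 h in MYC-ER cells. It fell by 1.70 ± 0.19 (log2, adjusted p = 5.74e-08) at 8 h and then rose by 3.86 ± 0.20 (log2, adjusted p = 4.08e-13) from 8 to 24 h, a 14.5-fold difference. The 24 h libraries were above all other libraries, parental ones included, at 0.878, 0.623 and 1.02 CPM at 0 h, 0.944, 0.963 and 1.36 at 8 h, 1.27, 1.27 and 1.02 at 24 h, and 0.828, 1.09 and 0.872 at 48 h. IFI6, a related protein that restrains cell death, measured 4.55, 4.53 and 4.54 CPM at 0 h, 2.34, 2.51 and 2.78 at 8 h, 14, 14.7 and 13.9 at 24 h, and 5.82, 5.26 and 4.05 at 48 h. Its fall of 0.84 ± 0.16 (log2, adjusted p = 0.000123) at 8 h was followed by a level above 0 h by 1.65 ± 0.16 (log2, adjusted p = 1.26e-08) at 24 h, and by 48 h its values overlapped 0 h again. Parental IFI6 measured 3.8, 2.62 and 4.67 CPM at 0 h, 2.53, 2.98 and 3.37 at 8 h, 3.17, 2.49 and 2.99 at 24 h, and 3.21, 3.11 and 3.67 at 48 h.

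LGALS3BP, a secreted glycoprotein that binds galectins, measured 253, 250.3 and 269 CPM at 0 h, 183, 170.0 and 183 at 8 h, 192, 195 and 188 at 24 h, and 207, 208 and 203 at 48 h in MYC-ER cells. Parental LGALS3BP measured 214, 163 and 228 CPM at 0 h, 151, 157 and 157 at 8 h, 145, 135 and 158 at 24 h, and 149, 168 and 168 at 48 h. LGALS3BP was lower than at 0 h in both lines, by 0.53 ± 0.084 (log2, adjusted p = 9.7e-06) in MYC-ER cells and by 0.38 ± 0.084 (log2, adjusted p = 0.00175) in parental cells at 8 h, the latter not passing with only those groups in the fit (adjusted p = 0.0901). BST2 (tetherin), which holds budding virions at the cell surface, fell by 0.29 ± 0.088 (log2, adjusted p = 0.00596) at 8 h in MYC-ER cells. PLSCR1, a phospholipid scramblase, differed at 8 h by -0.18 ± 0.056 (adjusted p = 0.00682) in MYC-ER cells and by 0.39 ± 0.056 (adjusted p = 3.44e-05) in parental cells, so its direction was opposite in the 2 lines.

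The PARP genes encode enzymes that attach ADP-ribose to proteins, and DTX3L is the ubiquitin ligase that pairs with PARP9. PARP14 measured 70.4, 76.3 and 68 CPM at 0 h, 38.6, 37.9 and 36.9 at 8 h, 43.7, 43.7 and 43 at 24 h, and 81.3, 84.6 and 79.5 at 48 h in MYC-ER cells and fell by 0.92 ± 0.067 (log2, adjusted p = 5.31e-11) at 8 h and 0.72 ± 0.067 (log2, adjusted p = 3.79e-09) at 24 h, with no overlap with 0 h. Parental PARP14 measured 35.4, 42.2 and 32.7 CPM at 0 h, 42.6, 42.3 and 44 at 8 h, 50.7, 55.5 and 53.9 at 24 h, and 54, 52 and 56 at 48 h and rose by 0.54 ± 0.067 (log2, adjusted p = 3.81e-06) at 24 h, which with trends over GC content and transcript length removed was 0.10 and did not pass. PARP12 rose by 0.95 ± 0.050 (log2, adjusted p = 2.25e-13) at 8 h in MYC-ER cells, from 26.5, 26.4 and 27.8 to 51, 52.3 and 52.8 CPM. DTX3L changed by -0.06 ± 0.075 (adjusted p = 0.477) at 8 h and fell by 0.56 ± 0.075 (log2, adjusted p = 1.13e-06) at 24 h, while PARP9 changed by -0.25 ± 0.079 (adjusted p = 0.00905) and 0.04 ± 0.079 (adjusted p = 0.707). PARP9 and DTX3L share 217 exon bases on opposite strands, and the sources used here do not say whether counting used strand.

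CXCL10, a chemokine that draws T cells through CXCR3, rose late. It measured 1.03, 1.3 and 1.24 CPM at 0 h, 1.16, 1.47 and 1.45 at 8 h, 0.96, 1.36 and 0.961 at 24 h, and 2.65, 2.86 and 3.41 at 48 h in MYC-ER cells, and the 48 h libraries were above all others. Its rise at 48 h was 1.32 ± 0.27 (log2, adjusted p = 0.000319). Parental CXCL10 measured 0.276, 0.177 and 0.22 CPM at 0 h, 0.221, 0.26 and 0.432 at 8 h, 0.422, 0.501 and 0.355 at 24 h, and 0.345, 0.159 and 0.145 at 48 h, below every MYC-ER library. CXCL11, its neighbour on chromosome 4, ran from 0.128 to 0.522 CPM in MYC-ER libraries. Its parental range was 0 to 0.161 CPM.

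TRIM22, a ubiquitin ligase with antiviral activity, had the largest fall at 8 h among the members that passed. It measured 43.8, 41.6 and 42.5 CPM at 0 h, 4.64, 4.63 and 4.43 at 8 h, 12.5, 12.8 and 14.8 at 24 h, and 57.8, 58.8 and 65.1 at 48 h in MYC-ER cells, and no group overlapped another. TRIM22 fell by 3.22 ± 0.099 (log2, adjusted p = 2.65e-17) at 8 h, 9.35-fold, was still lower by 1.67 ± 0.092 (log2, adjusted p = 6.46e-13) at 24 h, and stood above 0 h by 0.51 ± 0.089 (log2, adjusted p = 7.74e-05) at 48 h. Parental TRIM22 measured 11.7, 13.6 and 9.39 CPM at 0 h, 14.1, 14.5 and 13.5 at 8 h, 12.1, 11.6 and 11.6 at 24 h, and 13.4, 12.9 and 12.9 at 48 h. Exons of an olfactory receptor gene on the same strand overlap 10.66% of its exon bases.

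IFI44L and IFI44 are neighbours on chromosome 1 and fell together at 8 h. IFI44L measured 9.92, 10.7 and 11.8 CPM at 0 h, 1.25, 2.25 and 1.92 at 8 h, 8.61, 10.7 and 10.3 at 24 h, and 8.89, 10.1 and 9.3 at 48 h in MYC-ER cells and fell by 2.58 ± 0.19 (log2, adjusted p = 4.43e-11) at 8 h. By 24 h its values overlapped those at 0 h, with a change of -0.13 ± 0.17 (adjusted p = 0.518). Parental IFI44L measured 8.89, 9.17 and 6.36 CPM at 0 h, 8.27, 8.63 and 7.59 at 8 h, 9.57, 9.27 and 7.77 at 24 h, and 14.2, 11.1 and 9.31 at 48 h. IFI44 measured 4.42, 4.73 and 4.86 CPM at 0 h, 1.55, 1.97 and 1.75 at 8 h, 5.33, 6.36 and 6.38 at 24 h, and 4.22, 4.12 and 4.26 at 48 h in MYC-ER cells. Parental IFI44 measured 2.72, 2.83 and 3.16 CPM at 0 h, 3.87, 3.02 and 3.41 at 8 h, 3.33, 3.93 and 3.12 at 24 h, and 3.18, 2.73 and 3.4 at 48 h. The fall of IFI44 at 8 h in MYC-ER cells was 1.41 ± 0.12 (log2, adjusted p = 1.19e-09). IFI35, which binds NMI, changed by -0.34 ± 0.12 (adjusted p = 0.0189) at 8 h, a call lost without 0 h replicate 1 (-0.27) or 8 h replicate 2 (-0.25), and by 0.30 ± 0.12 (adjusted p = 0.054) at 48 h.

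Of the 5 members under 1 CPM, 3 had groups in which every library counted 0. MX2, a GTPase that blocks nuclear import of viral genomes, had no counts in the 3 MYC-ER 0 h libraries or in any of the 12 parental libraries. Its counts were 0, 0 and 5 at 8 h, 26, 41 and 31 at 24 h, and 9, 9 and 19 at 48 h. With 3 counts per library set in place of 0, MX2 was at least 11.73-fold higher at 24 h and at least 4.325-fold higher at 48 h than at 0 h. The adjusted p was 0.000739 at 24 h, and DESeq2's Wald test did not pass it (0.055). EPSTI1 had 0 counts at 0 and 8 h in MYC-ER cells, 11, 6 and 19 at 24 h and 32, 7 and 13 at 48 h, at least 4.308-fold and 5.936-fold higher than at 0 h (adjusted p = 2.88e-05 and 2e-05). It had 9 to 33 counts in every parental library. XAF1, which binds the apoptosis inhibitor XIAP, counted 16, 22 and 30 at 24 h against 0 in the 3 libraries at 8 h, at least 6.736-fold higher (adjusted p = 0.00206). An antisense gene overlaps 38.32% of its exon bases.

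CMPK2, a mitochondrial nucleotide kinase next to RSAD2, counted 13, 29 and 22 at 0 h and 57, 104 and 68 at 24 h in MYC-ER cells, a rise of 1.94 ± 0.31 (log2, adjusted p = 1.18e-05). MX1, the GTPase that blocks influenza viruses, measured 0.713, 0.828 and 0.759 CPM at 0 h, 0.239, 0.419 and 0.147 at 8 h, 0.937, 0.871 and 0.84 at 24 h, and 1.22, 1.13 and 1.24 at 48 h in MYC-ER cells. Parental MX1 measured 0.914, 0.611 and 0.868 CPM at 0 h, 0.839, 0.697 and 0.482 at 8 h, 0.512, 0.568 and 0.861 at 24 h, and 0.899, 0.694 and 0.713 at 48 h. In MYC-ER cells it fell by 1.52 ± 0.29 (log2, adjusted p = 7.4e-05) at 8 h and rose by 1.72 ± 0.29 (log2, adjusted p = 2.49e-05) from 8 to 24 h.

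Before 4-OHT the lines already differed in these genes. In MYC-ER cells at 0 h, 22 of the 42 were higher than in parental cells and 9 were lower, against a background of 64.3% of all genes in either direction (31.6% higher and 32.7% lower). The members' median difference was 0.42 (log2), against 0 for all genes. IFIT2 was higher by 2.82 ± 0.14 (log2, adjusted p = 1.25e-13), 7.08-fold, with 8.19, 8.26 and 7.99 CPM in MYC-ER cells and 1.17, 1.19 and 1.09 in parental cells. SAMD9L was higher by 2.55 ± 0.15 (log2, adjusted p = 1.44e-12), CXCL10 by 2.40 ± 0.29 (log2, adjusted p = 2.26e-07), TRIM22 by 1.88 ± 0.093 (log2, adjusted p = 1.05e-13) and IFIT1 by 1.52 ± 0.22 (log2, adjusted p = 3.94e-06). DHX58 was higher by 1.34, STAT2 by 1.24 and IFI27 by 1.18. All 4 IFIT genes, both RNA sensors and all 3 signalling members were higher in MYC-ER cells, although the difference in IRF7, 0.43, did not pass without parental 0 h replicate 2 (0.25).

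Of the 4 OAS genes, 3 stood on the other side. OAS3 was lower in MYC-ER cells by 1.56 ± 0.072 (log2, adjusted p = 3.78e-14), OAS1 by 1.10 ± 0.072 (log2, adjusted p = 1.2e-11) and OAS2 by 1.05 ± 0.13 (log2, adjusted p = 2.1e-07), with no overlap between the lines in any of them. OASL, at -0.28 ± 0.14 (adjusted p = 0.098), did not pass. USP18 was lower by 0.68 ± 0.088 (log2, adjusted p = 6.67e-07) and ISG15 by 0.68 ± 0.14 (log2, adjusted p = 0.000268), the last overlapping between lines and, with GC and length trends removed, at -0.12 and not passing. EPSTI1 was at least 4.499-fold lower in MYC-ER cells. The comparisons with MYC-ER at 0 h over time and the comparison of lines at 0 h share the same 3 libraries, so a gene that is high in those libraries appears as higher in one and lower in the other. The sum of fibroblast markers was also higher in those libraries, as given above, and its part was not tested.

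**Figure D4:**
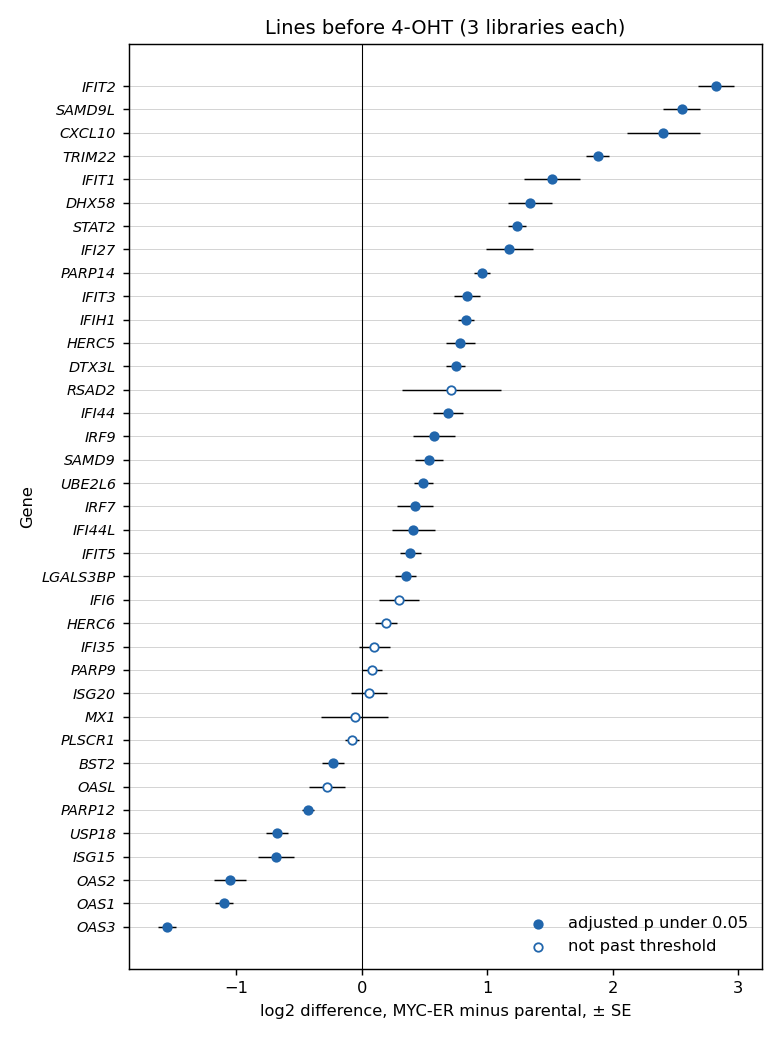
Log2 difference between the lines at 0 h, MYC-ER minus parental, with its standard error, for the 37 members that reached 1 CPM in some group (rows in order of the difference), with filled points where the adjusted p was under 0.05. IFIT2, SAMD9L and CXCL10 lie above 2, and OAS3, OAS1 and OAS2 lie below -1.

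In parental cells 4-OHT alone was followed by few large changes. At 8 h, 6 of the 42 genes were higher and 8 lower (background 31%, with 15% higher and 16% lower). After 24 h, 15 were higher and 6 lower (42.9%, with 21.2% and 21.7%), and after 48 h, 10 were higher and 8 lower (40.5%, with 20.4% and 20.1%). None that passed the threshold was changed 2-fold or more at 8 or 48 h (background 2.18% and 2.62%). At 24 h CXCL11 and RSAD2 were (background 3.98%), by 1.81 ± 0.63 (adjusted p = 0.0253) and 1.00 ± 0.40 (adjusted p = 0.0471). The RSAD2 value did not pass when any parental library of 0 or 24 h other than 24 h replicate 2 was left out (1.09, 1.06 and 0.89 without 0 h replicates 1, 2 and 3, and 0.71 and 1.00 without 24 h replicates 1 and 3). The CXCL11 value did not pass without parental 0 h replicate 1 (1.24) or replicate 2 (1.59), or without parental 24 h replicate 1 (1.68) or replicate 3 (1.77).

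These parental counts depended on the fit. With only the groups compared in the fit they were 3, 12 and 5 at 8, 24 and 48 h, and the count at 8 h was 9 without parental 0 h replicate 1, while that at 48 h was 11 without parental 0 h replicate 3. SAMD9L rose by 0.93 ± 0.14 (log2, adjusted p = 6.89e-05) at 8 h in parental cells, PLSCR1 by 0.39 ± 0.056 (log2, adjusted p = 3.44e-05) and SAMD9 by 0.91 ± 0.11 (log2, adjusted p = 4.49e-06) at 24 h. Both SAMD9L and PLSCR1 were lower at 8 h in MYC-ER cells. OAS1 fell by 0.60 ± 0.071 (log2, adjusted p = 4.04e-06) at 8 h, from 43.4, 38.3 and 47.9 to 26.5, 30.1 and 28.8 CPM, the opposite of its direction in MYC-ER cells.

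The line by time interaction subtracts the change in parental cells from that in MYC-ER cells and tests whether the lines responded differently. At 8 h it passed for 30 of the 42 genes, 9 with the MYC-ER change the higher and 21 the lower (background 55.2%, with 27.3% higher and 27.8% lower). Among members that reached 1 CPM, the lowest values were -3.50 ± 0.13 (adjusted p = 3.66e-15) for TRIM22, -3.45 ± 0.20 (adjusted p = 4.67e-12) for SAMD9L and -2.58 ± 0.25 (adjusted p = 1.15e-08) for IFI44L. The highest were 2.48 ± 0.56 (adjusted p = 0.000728) for RSAD2, 1.97 ± 0.21 (adjusted p = 3.98e-08) for OASL and 1.52 ± 0.10 (adjusted p = 2.86e-11) for OAS1. At 24 h it passed for 26, 11 higher and 15 lower (background 54.5%, with 27.7% higher and 26.8% lower). Among the same members, SAMD9L at -1.76 ± 0.20 (adjusted p = 1.37e-07), TRIM22 at -1.69 ± 0.13 (adjusted p = 2.99e-10) and IFIT2 at -1.35 ± 0.19 (adjusted p = 3.12e-06) were lowest, and IFI6 at 2.01 ± 0.23 (adjusted p = 1.78e-07), IFI27 at 1.66 ± 0.26 (adjusted p = 1.04e-05) and OAS2 at 1.63 ± 0.18 (adjusted p = 6.73e-08) were highest.

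At 48 h the interaction passed for 22 genes, 13 higher and 9 lower (background 45%, with 23.6% higher and 21.4% lower). CXCL10 at 1.36 ± 0.40 (adjusted p = 0.00843), ISG20 at 1.02 ± 0.20 (adjusted p = 0.000281) and OAS3 at 0.91 ± 0.10 (adjusted p = 2.5e-07) were highest among members that reached 1 CPM. SAMD9 at -0.73 ± 0.16 (adjusted p = 0.000851), IFI44L at -0.70 ± 0.24 (adjusted p = 0.0223) and SAMD9L at -0.68 ± 0.20 (adjusted p = 0.0077) were lowest. With GC and length trends removed these last values were -0.11, -0.14 and -0.06, and none passed. The IFI44L value also did not pass without MYC-ER 0 h replicate 3 (-0.63), MYC-ER 48 h replicate 1 (-0.66), parental 0 h replicate 3 (-0.58) or parental 48 h replicate 1 (-0.53), or with scaling by library size alone (-0.60).

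Genomic neighbours on the list did not always move alike (positions from RefSeq, GRCh38.p14). The IFIT genes lie in the order IFIT2, IFIT3, IFIT1 and IFIT5 on chr10:89302046-89420997, where the outermost changed by -1.62 and 0.43 (log2) at 8 h. OAS1, OAS3 and OAS2 lie in that order on chr12:112906962-113011723 and changed by 0.92, 0.76 and -0.26 at 8 h and by -0.08, 1.30 and 1.82 at 24 h. SAMD9 and SAMD9L on chr7:93099518-93148385 changed by -0.48 and -2.52 at 8 h. HERC6 and HERC5 on chr4:88378852-88506163 changed by -0.59 and -1.24, and IFI44L and IFI44 on chr1:78620448-78664078 by -2.58 and -1.41.

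Members with and without a match to the ISRE core went in both directions, and a difference between these sets was not tested. The 8 members not in the promoter table, TRIM22, DHX58 and IFIT2 among them, are in neither set. At 8 h in MYC-ER cells, 15 of the 24 genes with a match were lower and 5 higher, with a median change of -0.39. Of the 10 genes with a window but no match, 5 were lower and 1 higher, with a median of -0.46. From 8 to 24 h, 15 of the 24 rose and 4 fell, against 6 and 1 of the 10. OAS3 and ISG20, whose windows are printed above with those of IFI44 and IFI27, rose at 8 h while IFI44 and IFI27 fell.

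The other genes of the pathway came from a list of 107, of which 83 were tested. In MYC-ER cells 32 rose and 36 fell at 8 h (background 32.2% higher and 35.4% lower). At 24 h 21 rose and 41 fell (background 30.4% and 31.2%), and at 48 h 30 rose and 14 fell (background 23.4% and 20.7%). Interferon ligands were scarcely counted. Of 13 interferon alpha genes listed, 12 had no counts in any library and IFNA5 had 2 in all. IFNB1 reached at most 6 counts in a library and IFNG at most 3. IFNL1 counted 19 to 28 in the MYC-ER libraries at 8 h and 0 in all 3 at 0 h, at least 10.17-fold higher (adjusted p = 0.00276), and counted 7 to 21 in parental libraries at 24 h. The parental 8 h libraries had 0 to 14 IFNL1 counts, and those before 4-OHT had 0 to 4. IFNE, a type I interferon of epithelia, had 44 to 196 counts per library.

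JAK1 and JAK2, kinases of the receptors, fell, and the receptor genes went both ways. JAK1 measured 316, 337 and 317 CPM at 0 h, 112, 115 and 113 at 8 h, 88.5, 83.3 and 85.4 at 24 h, and 179, 179.9 and 179.9 at 48 h in MYC-ER cells, and the 0 h libraries were far above the rest. It fell by 1.51 ± 0.063 (log2, adjusted p = 4.1e-15) at 8 h and by 1.92 ± 0.064 (log2, adjusted p = 1.02e-16) at 24 h, and in parental cells JAK1 ran from 76.7 to 115 CPM. JAK2 fell by 1.60 ± 0.13 (log2, adjusted p = 3.97e-10) at 8 h and by 1.70 ± 0.13 (log2, adjusted p = 5.72e-10) at 48 h. IFNGR1, a receptor for interferon gamma, fell by 1.44 ± 0.063 (log2, adjusted p = 8.78e-15) at 8 h while its partner IFNGR2 rose by 1.27 ± 0.067 (log2, adjusted p = 1.91e-13). IFNAR1 and IFNAR2 rose by 0.29 and 0.78 (log2) at 8 h (adjusted p = 0.00164 and 3.5e-08). IFNLR1 fell by 1.11 ± 0.22 (log2, adjusted p = 0.000138) at 8 h and rose over 0 h by 1.27 ± 0.21 (log2, adjusted p = 4.48e-05) at 48 h, and IL10RB changed by 0.01 ± 0.11 (adjusted p = 0.955) at 8 h.

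The factors did not move as one. STAT3 fell by 0.44 ± 0.056 (log2, adjusted p = 4.33e-07) at 8 h and by 0.99 ± 0.056 (log2, adjusted p = 9.09e-13) at 24 h. IRF1, an activator that shares the ISRE, measured 34.2, 32.9 and 34.8 CPM at 0 h, 21, 20.2 and 22.2 at 8 h, 13.9, 14.3 and 14.6 at 24 h, and 70.8, 71.9 and 70.5 at 48 h, lower by 0.69 at 8 h and 1.25 at 24 h and higher by 1.06 ± 0.061 (log2, adjusted p = 4.46e-12) at 48 h. IRF2 fell by 0.84 ± 0.061 (log2, adjusted p = 7.75e-11) at 24 h, and IRF3 rose by 0.66 ± 0.076 (log2, adjusted p = 9.36e-08) at 8 h. SOCS1, an inhibitor of the JAK kinases that interferon itself induces, measured 17.4, 12.5 and 14.9 CPM at 0 h, 2.59, 2.28 and 2.07 at 8 h, 0.704, 0.619 and 0.526 at 24 h, and 8.55, 8.69 and 7.88 at 48 h in MYC-ER cells and 0.588 to 1.33 in parental cells. It fell by 2.69 ± 0.19 (log2, adjusted p = 4.31e-11) at 8 h and fell by 4.60 ± 0.21 (log2, adjusted p = 3.19e-14) at 24 h. By contrast, SOCS3 rose by 1.59 ± 0.21 (log2, adjusted p = 6.05e-07) at 8 h and 2.94 ± 0.21 (log2, adjusted p = 1.56e-10) at 48 h.

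Other interferon-induced genes outside the 42 moved 2-fold or more in both directions. At 8 h GBP2 fell by 2.28 ± 0.087 (log2, adjusted p = 9.94e-16), TRANK1 by 2.50 ± 0.081 (log2, adjusted p = 5.64e-17), CIITA by 4.64 ± 0.67 (log2, adjusted p = 2.83e-06) and APOL1 by 2.83 ± 0.27 (log2, adjusted p = 4.57e-09). WARS1 instead rose at 8 h, with 15307 to 17040 counts per MYC-ER library against 6978 to 7939 at 0 h. The named genes that fell were still low at 24 h. GBP2 then had 1517 to 1555 counts against 8274 to 9112 at 0 h, and TRANK1 681 to 758 against 3970 to 4126. APOL1 had 33 to 44 against 411 to 509, and CIITA 2 to 40 against 550 to 1395. At 24 h IFITM2 rose by 2.05 ± 0.10 (log2, adjusted p = 9.05e-14) and IFITM1 by 2.27 ± 0.43 (log2, adjusted p = 9.6e-05). Of the 37 tested genes of this group, 12 fell 2-fold or more at 8 h and 3 rose, where 34.7% of all tested genes changed that much in either direction. At 24 h 9 fell and 4 rose (background 27.5%). Among the sensors and adaptors outside the 42, the RNA sensor TLR3 fell by 2.68 ± 0.10 (log2, adjusted p = 1.08e-15) at 8 h. RIGI, the sensor of short double-stranded RNA, rose by 1.22 ± 0.072 (log2, adjusted p = 1.7e-12) at 8 h, and the DNA sensor CGAS by 1.52 ± 0.076 (log2, adjusted p = 8.37e-14). STING1, the adaptor of CGAS, rose by 1.14 ± 0.076 (log2, adjusted p = 1.41e-11) at 24 h.

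**Figure D5:**
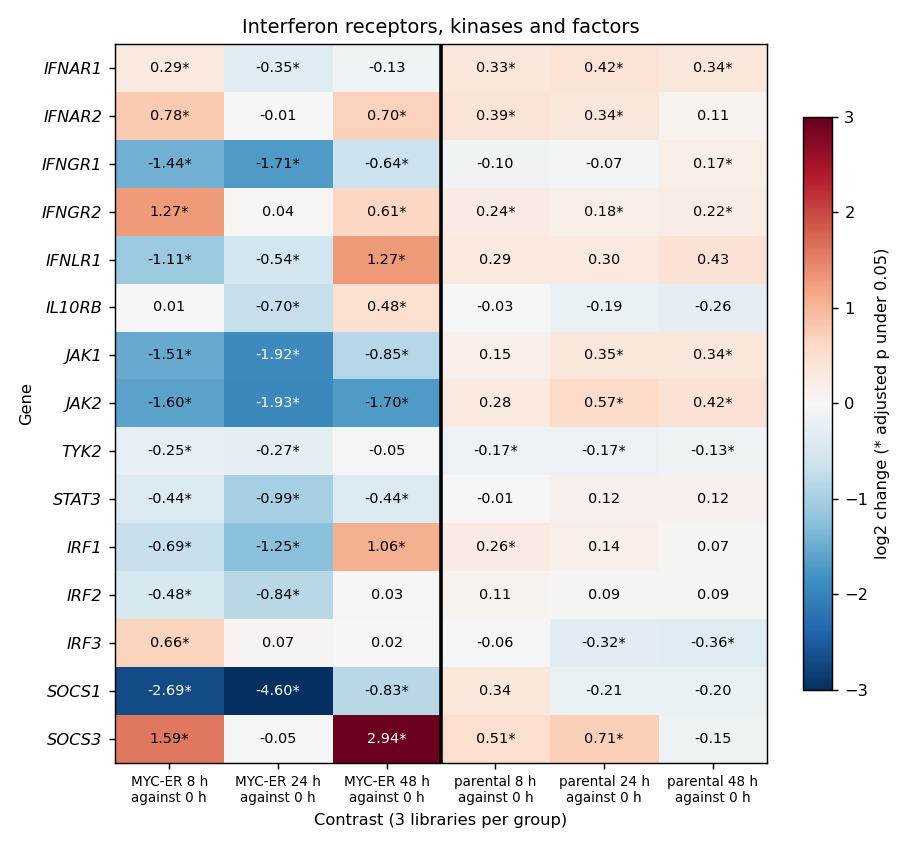
Log2 change from 0 h, printed and coloured, for 15 receptors, kinases, transcription factors and SOCS inhibitors (rows) at 8, 24 and 48 h in each line (columns), with a star where the adjusted p was under 0.05. In MYC-ER cells JAK1, JAK2, IFNGR1 and SOCS1 are below 0 with a star at all 3 times, with SOCS1 at -4.60 at 24 h.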

How the data were processed

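RNA was measured by stranded, poly(A)-selected, paired-end sequencing of 24 libraries, per the labels' protocols. The authors deposited 1 table of whole-number counts per gene. The submitters' processing notes name Trimmomatic 0.39, STAR, StringTie 2.1.3b and GRCh38. How reads became counts, the annotation release and the use of strand are not given in the sources used here, so the counts may be estimates. Groups came from the sample labels.

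Genes were filtered with filterByExpr, scaled by TMM and fitted with 1 mean per group over all 24 libraries by edgeR 4.0.16 (quasi-likelihood F test, R 4.3.3), with Benjamini-Hochberg adjustment over 22158 genes within each contrast and a threshold of 0.05. Standard errors are the change divided by the square root of F. CPM used TMM-scaled totals. These standard errors come from the fit, so they include the spread between libraries. The fold limits given for groups without counts cover counting error only. All 42 members may be named, those given in every library having the highest CPM of their role or a called 2-fold change and 1 CPM. The members and gene lists were chosen with earlier results of these data known. Alternatives were other scalings (DESeq2 1.42.0), filters, tests and designs, trends over GC content and length removed (lowess curves in R), and each library left out. The fit was tested on simulated data. Some genes of the pathway are not reported here.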

Additional observations from a re-analysis of the deposited data

Results flagged for a closer look

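The response of the lines to 4-OHT differed by the interaction test itself (edgeR, adjusted over all genes) for 30 members after 8 h, 26 after 24 h and 22 after 48 h. Subtracting the parental change from the MYC-ER change gave, at 8 h, -3.50 for TRIM22, -3.45 for SAMD9L and -2.58 for IFI44L, and 2.48 for RSAD2, 1.97 for OASL and 1.52 for OAS1. At 24 h it was -1.76 for SAMD9L, -1.69 for TRIM22 and -1.35 for IFIT2, and 2.01 for IFI6, 1.66 for IFI27 and 1.63 for OAS2. At 48 h it was -0.73 for SAMD9, -0.70 for IFI44L and -0.68 for SAMD9L, and 1.36 for CXCL10, 1.02 for ISG20 and 0.91 for OAS3.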

How the results depend on the processing

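Scaling by library size alone moved every gene's change by 0.116 at 24 h and 0.162 at 48 h against 0 h, and by 0.206 from 8 to 24 h, in MYC-ER cells (log2). The members' median became 0.346 at 48 h and 0.764 from 8 to 24 h. Of the 504 values (42 genes in 12 comparisons), 460 kept their call under that scaling, 502 under DESeq2 size factors and 485 with no filter. A kept call means the same direction where both fits passed the threshold. Values that passed in neither fit also count as kept, whatever their sign. Fewer values kept their call with GC and length trends removed, 410 of the 504. There, 21 values that passed in either fit changed sign, 41 calls were lost and 32 were gained. With only the groups compared in the fit, 422 of 482 values kept theirs, while 44 calls were lost and 16 gained. The replicate numbers did not pair samples (correlations of deviations from -0.221 to 0.339, mean 0.009 over 84 pairs), and with the replicate block 497 of the 504 kept theirs.

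The parental counts moved most. With only the groups compared in the fit, members past the threshold numbered 3, 12 and 5 at 8, 24 and 48 h, and all genes 1452, 4923 and 3274 (against 6870, 9503 and 8978). With GC and length trends removed, members numbered 13 at 24 h and 8 at 48 h. Leaving out 1 library gave 9 to 18 members at 8 h (without parental 0 h replicate 1 or 2) and 11 to 24 at 48 h (without parental 0 h replicate 3 or 2).

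Values that passed in the main or the alternative fit and changed sign did so with GC and length trends removed. In parental cells these were IFIT5 -0.14 and PARP14 -0.0024 at 8 h, IRF7 0.55, IFIT5 -0.0068 and IFI35 0.44 at 24 h, and IRF7 0.088, UBE2L6 0.15, IFIT5 -0.066, LGALS3BP 0.054 and IFI35 0.046 at 48 h. Between lines at 0 h they were BST2 0.28 and PARP9 -0.28. In the interaction they were BST2 -0.27 at 8 h, BST2 -0.37, LGALS3BP -0.29 and PARP9 0.31 at 24 h, and UBE2L6 -0.011, BST2 -0.20, PARP9 0.32, DTX3L 0.093 and PARP14 0.16 at 48 h. The cause was not tested.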
